A study of Hypomesus transpacificus with 70 samples.

Results

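The handling control of this salinity experiment followed delta smelt (Hypomesus transpacificus) that were kept at the acclimation salinity of 2 ppt while other fish were moved to new salinities, and its gill transcripts at 42 h are set here against those at 0 h. The comparison and the gene lists below were chosen with earlier results of these data known. Its arrays were picked by their labels, as those of the 2 ppt group at 42 h and at 0 h, 12 of 70 arrays in all. Each of these arrays carried the labeled gill RNA of 1 prespawning adult. A ramp of 6 h preceded 0 h, so the hours are counted from the moment when the other groups had reached their target salinity. The tested comparison is 6 fish at 42 h against 6 fish at 0 h, and 6 further fish at 18 h show the path between them. For comparison there were 32 fish at 0, 6, 12 and 18 ppt, 4 at 42 h and 4 at 0 h for each salinity, and 5 fish taken from 2 ppt before the ramp began. All fish had been moved in groups to small flow-through containers on the evening before, and the fish of each sampling time were separate animals, since gill sampling ended the life of the fish. Control fish are named here by the letter and number of their label (A2, B1), whose letter is not explained in the labels. Whether fish of 1 letter shared a container is not stated there. The p-values rest on the spread between single fish, pooled over the 16 groups of all 70 arrays. They do not separate any spread between containers. Samples at 18 h and 42 h were 24 h apart, whereas 0 h and 42 h differ in the time of day, which cannot be told apart from the time spent in the container. The study counts its containers by salinity and time point, with additional ones for the handling controls. Differences between containers can thus not be told apart from time either.

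The gill of a teleost exchanges gases, ions and nitrogenous waste with the water across a thin epithelium, and it is also a barrier tissue with resident immune cells. Proteins destined for the membrane or for secretion are folded in the endoplasmic reticulum (ER) by chaperones, while ribosomes are assembled in the nucleolus. Cytokines such as interleukin-1 beta carry inflammatory signals between cells, and a separate set of interferon-stimulated genes acts against viruses.

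Each gene is represented on the array by oligonucleotides of 60 bases. The oligonucleotides of the 5 genes on which the account below turns most are shown so that agreement within a gene can be judged: a pair that shares nearly all of its bases is a repeat of 1 measurement, whereas a pair with no shared stretch is a more independent reading of the gene. Capitals mark the stretch that both oligonucleotides of a gene share.
irg1l oligo 1: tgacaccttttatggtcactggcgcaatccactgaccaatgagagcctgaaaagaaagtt
irg1l oligo 2: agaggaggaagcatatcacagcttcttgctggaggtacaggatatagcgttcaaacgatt
alas1 oligo 1: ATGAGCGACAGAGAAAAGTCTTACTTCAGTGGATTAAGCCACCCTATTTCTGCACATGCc
alas1 oligo 2: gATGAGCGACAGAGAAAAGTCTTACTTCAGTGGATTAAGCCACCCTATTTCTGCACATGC
il1b oligo 1: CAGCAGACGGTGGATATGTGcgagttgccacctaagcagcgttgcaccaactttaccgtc
il1b oligo 2: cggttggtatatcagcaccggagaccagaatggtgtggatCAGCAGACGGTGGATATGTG
CU915778.1 oligo 1: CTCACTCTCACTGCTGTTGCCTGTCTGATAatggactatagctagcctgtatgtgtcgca
CU915778.1 oligo 2: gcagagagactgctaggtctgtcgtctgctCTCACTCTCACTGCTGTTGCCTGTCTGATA
slc17a9a oligo 1: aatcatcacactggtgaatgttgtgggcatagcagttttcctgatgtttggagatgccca
slc17a9a oligo 2: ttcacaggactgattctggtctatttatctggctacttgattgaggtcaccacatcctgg

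The alas1 oligonucleotides shared 59 bases, those of CU915778.1 shared 30 and those of il1b shared 20, whereas those of irg1l and slc17a9a shared no stretch. Over the whole gene list of the study, 161 genes had 2 or more oligonucleotides above the signal filter described below. In the 86 of them that changed between 0 h and 42 h, every oligonucleotide of a gene moved in the direction of its partners, with a median gap of 0.07 and a largest gap of 0.90 on the log2 scale. Genes entered this count through the average of their oligonucleotides. That tends to leave out genes whose oligonucleotides disagree, so the agreement is in part set by the selection. For 129 genes the oligonucleotides shared at least 20 bases and 6 genes carried an identical pair, and 215 genes rested on a single oligonucleotide.

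Values are log2 of the processed fluorescence signal after quantile normalization over all 70 arrays, and a difference of 1 is a doubling. Of 36818 probes, 14425 reached a signal of 100 on 50% or more of the arrays, so that 6 bright arrays of 1 group could not carry a probe through this filter. A probe that was bright at the later times at several salinities could still pass while dim at 0 h. Tests are moderated tests in limma with Benjamini-Hochberg adjustment over all features, and a feature is called changed at an adjusted p of 0.05 or less. For named genes, the oligonucleotides that the study assigns to a gene were averaged in each fish. The median signal of an array lay between 29.2 and 58.8 at 42 h and between 40.6 and 119 at 0 h, so the groups overlapped but the 42 h arrays were dimmer, with a median of 48.1 against 69.2. The share of probes well above background was 70.8% to 83.4% at 42 h and 77.9% to 90.8% at 0 h. The scanner's photomultiplier stood at 610 for 4 of 6 arrays at 42 h and for 1 of 6 at 0 h, and at 580 for the others. The part of brightness and scanner setting in the results was not tested beyond the values given below. One fish, A2 at 42 h, stood apart from the other 42 h fish in most gene groups, and its effect is given where it bears on a result.

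Without any change of salinity, 1484 of 14424 probes differed between 42 h and 0 h, 934 of them higher and 550 lower at 42 h, which is 10.3% of the probes tested. The difference was at least 1 log2 unit for 539 of them, and the median of all probes was -0.03. When fish A2 at 42 h was left out, 2334 probes were called, whereas the count was 705 without fish C2 at 42 h, 854 without fish A3 at 42 h and 923 without fish C2 at 0 h. All 1484 probes kept their sign in each of these fits. These fits share most of their arrays with the fit that selected the probes, so the kept signs carry little weight. Between 18 h and 0 h no probe passed the threshold in limma, although 925 had an unadjusted p under 0.05 and the smallest adjusted p was 0.102. From 18 h to the same clock time at 42 h, 6 of 14424 probes changed (0.0416%), 1 higher and 5 lower at 42 h, with 1525 at an unadjusted p under 0.05. Leaving out fish A2 at 42 h raised this count to 407.

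Only some of these probes can be named. The study assigned gene names to 697 probes for 448 genes that it had selected for an effect of salinity or of salinity by time on these same arrays, so the named genes are not an independent sample of the array. Among the 1484 changed probes, 272 had a name and 1212 had none. The share changed was 47.3% of the named probes tested and 8.75% of the unnamed ones. After averaging the probes of a gene, 376 named genes passed the filter, of which 128 (34.0%) were higher and 42 (11.2%) lower at 42 h. Over all 14225 genes and single probes the shares were 5.80% higher and 3.61% lower. In 46 named genes all 6 fish at 42 h lay above all 6 fish at 0 h, and in 13 all lay below, against 1.34% and 1.06% of the 13907 features measured in all 12 fish. The median difference was 0.34 for the named genes and -0.04 for all genes and single probes. The measured members of the lists below are all named genes, so their counts are to be read beside the 34.0% higher and 11.2% lower.

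The single named gene that moved most was irg1l, described as immune-responsive gene 1-like, whose mammalian counterpart makes itaconate in activated macrophages. Its log2 signal had a lowest, median and highest value of 7.73, 10.61 and 11.57 at 42 h, against 4.16, 5.58 and 6.39 at 0 h. Every fish at 42 h lay above every fish at 0 h, and the lowest of the 42 h fish was A2. The mean was 10.27 ± 1.40 at 42 h and 5.44 ± 0.82 at 0 h (SD, n = 6 each), a 28.4-fold difference (log2 difference 4.83 ± 0.76 SE, adjusted p = 4.52e-05 in limma). At 18 h the 6 fish were spread over the whole range between both groups, with values of 5.20 to 10.79. The second oligonucleotide, which shares no stretch with the first but was too dim for the filter, gave a difference of 5.23. Its mean at 0 h was 2.49. The 0 h values of irg1l were thus low, and the size of its fold difference is uncertain.

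Transcripts of secreted inflammatory signals rose with it. In the list of 11 cytokines and chemokines, 9 were measured above the filter and 6 were higher at 42 h, none lower, with a median difference of 1.196. The count was 3 without fish A3 at 42 h or without fish C2 at 0 h. Interleukin-1 beta (il1b), the central cytokine of early inflammation, had values of 9.19, 9.91 and 11.13 (lowest, median and highest) at 42 h and of 6.03, 7.46 and 8.99 at 0 h. These ranges did not overlap, and the difference was 2.51 ± 0.68 (5.70-fold, adjusted p = 0.0135). The chemokine described as CCL4 (isotig23598), an attractant of leukocytes in mammals, measured 10.12, 10.65 and 11.13 at 42 h against 8.12, 8.47 and 9.43 at 0 h. It also separated the groups completely (2.05 ± 0.34, adjusted p = 0.000137), and here fish A2 was not the lowest of the 42 h fish. A putative interleukin-8 (isotig26018), which attracts neutrophils in mammals, was higher by 2.21 ± 0.60 (adjusted p = 0.0137), with 5 of 6 fish at 42 h above all fish at 0 h. The interleukin-17 family member il17a/f3 was higher by 1.46 ± 0.44 (adjusted p = 0.026), a call lost in 9 of 31 alternative fits. Its oligonucleotides of isotig05375 gave 1.40 and 1.39 and did not pass singly (adjusted p = 0.0613 and 0.0552 in limma). Also higher were il12ba, a chain of interleukin-12, by 1.196, and the interleukin-6 family cytokine m17 by 1.02. The chemokines ccl19, CU693369.1 (described as a CCL21) and zgc:195195 (described as a CCL20) did not pass the test, with differences of 1.03, -1.18 and 0.28. The members ebi3 (1.82) and si:ch211-202c4.2 (0.00) were too dim for the filter and were fitted without it.

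Among 10 measured genes of NF-kB and innate immune signaling, 5 were higher and 1 was lower at 42 h, with a median of 0.66, and 3 were higher without fish A3 or fish C2 at 42 h. Beside irg1l, those that rose were noxa1 (1.28 ± 0.24, adjusted p = 0.000367), whose description names a neutrophil cytosol factor, a part of the oxidase that makes superoxide, and traf3ip2l (1.04 ± 0.20), an adapter of interleukin-17 receptors. The receptor for platelet-activating factor (PTAFR, 0.98 ± 0.29) and the kinase chuk (0.49), which releases NF-kB from its inhibitor, completed the group. The complement protease masp1 fell by 0.96. Members too dim for the filter were TNIP2 (0.26), gpr84 (1.01), c5 (-0.19) and TNFRSF9 (3.42). For noxa1 the 42 h fish measured 10.07 to 11.55 and the 0 h fish 9.05 to 9.82, with no overlap, while PTAFR overlapped and lost its call in 16 of 31 alternative fits. Of 5 measured genes of the JAK-STAT pathway, stat3, which carries the signal of interleukin-6 cytokines to the nucleus, rose by 0.83 ± 0.24 (adjusted p = 0.0185), a call lost without fish A3 or fish C2 at 42 h. Its feedback inhibitors socs1a (0.80), socs3b (0.46), socs2 (-0.15) and cish (-0.35) did not pass. Of 9 measured immediate early and stress regulators, cebpb, a transcription factor of the acute phase, passed at 1.29 ± 0.43 (adjusted p = 0.0431), a call lost in 21 of 31 alternative fits, and the list had a median of 0.05 that turned negative in some of them.

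Markers of leukocytes could be read only in part. Of 12 such markers, 4 had a name, of which 3 were measured and the other was too dim for the filter. The measured ones were il1b and noxa1, which also stand in the lists above, and hcls1, a protein of blood-forming cells. The difference of hcls1 was 0.21 (adjusted p = 0.82 in limma). The median of these 3 genes, as a deviation from their mean in the 18 control fish, was 0.05 to 1.54 in the 42 h fish and -0.91 to -0.19 in the 0 h fish, with no overlap. Since il1b and noxa1 each separated the groups, this median largely repeats them and is no further reading of leukocytes. The part of leukocyte number in the rises above was not tested. In whole gill, more or fewer cells of a type and more or less RNA per cell cannot be told apart. Listed markers of erythrocytes and muscle were not in the study's gene list and were not analysed here. Of 3 measured epithelial markers none was called, with differences between -0.21 and -0.13.

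**Figure D1:**
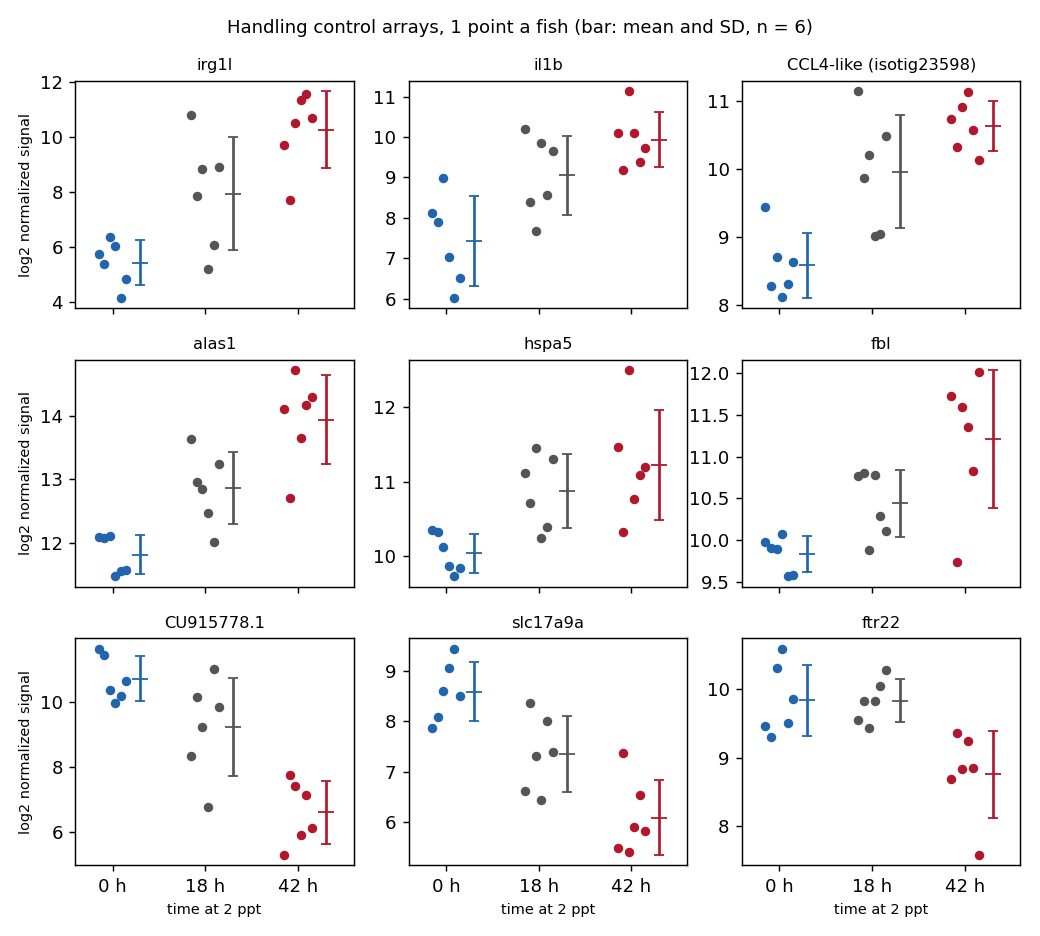
Log2 normalized signal (vertical axis of each panel) of 9 genes in the handling control at 0, 18 and 42 h (horizontal axis), 1 point for each fish, with the mean and SD of 6 fish beside the points. For irg1l, il1b, the CCL4-like chemokine and alas1 all 42 h fish lie above all 0 h fish, CU915778.1 and slc17a9a are the reverse, and the 18 h fish span the gap between both groups.

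In contrast to the inflammatory genes, genes of the interferon and antiviral list were lower at 42 h. Of 7 measured, 6 fell and 1 did not pass, with a median difference of -0.78. The count was 2 without fish C2 at 42 h, 3 without fish A1 at 42 h and 3 with the replicate label as a block. The largest was rsad2 (viperin), which blocks the replication of many viruses in mammals, at -1.36 ± 0.45 (adjusted p = 0.044). That call is weak, since it was lost in 23 of 31 alternative fits. Firmer were ftr22, a member of the fish-specific family of virus-induced TRIM proteins (-1.08 ± 0.24, adjusted p = 0.00218), and mov10a, an RNA helicase (-0.80 ± 0.17, adjusted p = 0.00135). The log2 signal of mov10a was 7.27 to 8.33 at 42 h against 8.31 to 8.78 at 0 h, so that 5 of 6 fish at 42 h lay below every fish at 0 h and the sixth, A2, lay at the lower edge of their range. The TRIM genes ftr16 (-0.78), ftr13 (-0.70) and ftr26 (-0.65) passed as well, whereas mxb, a GTPase of the Mx family, did not (-0.11, adjusted p = 0.90). The ubiquitin ligase HERC5 was too dim (-0.78). Taken as the median of the 7 genes in each fish, the list lay between -0.82 and -0.04 at 42 h and between 0.03 and 0.67 at 0 h, and no fish overlapped. The median difference was -0.16 between 18 h and 0 h and -0.55 between 42 h and 18 h, and no gene of the list passed in either.

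Genes that fold and build proteins rose together. Of 8 measured ER chaperones and folding enzymes, 8 were higher at 42 h, with differences of 0.77 to 1.60 and a median of 1.01. Without fish A3 at 42 h, C2 at 42 h or C1 at 0 h, 5 of 8 were called. The largest was hyou1, an ER chaperone of the Hsp70 family, with 7.93, 8.59 and 9.68 (lowest, median and highest) at 42 h against 6.54, 7.21 and 7.49 at 0 h. All fish at 42 h exceeded all fish at 0 h (1.60 ± 0.26, adjusted p = 0.000116). For hspa5 (BiP), the main chaperone of the ER, the values were 10.33 to 12.50 at 42 h and 9.73 to 10.35 at 0 h, with A2 alone inside the 0 h range (1.18 ± 0.22, adjusted p = 0.000417). The ER member of the Hsp90 family, hsp90b1, showed the same pattern (1.18 ± 0.23). Its value averages oligonucleotides of different transcripts. Those of isotig10069 gave 1.73 and 1.54 and those of isotig25619 gave 1.06 and 0.93, and these passed singly. Those of isotig10070, with a higher signal, gave 0.97 and 0.83 and did not pass (adjusted p = 0.0583 and 0.147 in limma). The gene manf, a secreted factor made under ER stress in mammals and described here as ARMET, rose by 1.09 ± 0.31 with wider overlap. The protein disulfide isomerases, which form the disulfide bonds of new proteins, rose by 0.77 (pdip5), 0.83 (pdia3 and pdia4) and 0.93 ± 0.16 (isotig33421). The 2 remaining members of the list, calrl2 and dnajb11, were too dim for the filter and gave 1.24 and 1.17 in a fit without it.

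Farther along the secretory route, 5 of 11 measured genes were higher, none lower, and all 11 differences were positive, with a median of 0.59. Without fish A3 at 42 h 2 were called, and without fish A3 at 0 h 3. They were rrbp1a, which binds ribosomes to the ER (1.16 ± 0.35), the cargo lectin lman2lb (1.04 ± 0.18, adjusted p = 0.000202), ncl1, described as nicalin (1.01 ± 0.24), srpr, a subunit of the receptor for the signal recognition particle (0.59 ± 0.16), and yipf2 (0.46). The coat proteins of vesicles leaving the ER did not pass (sar1b 0.78, sec23b 0.64, sec31a 0.23), nor did itm1 (0.43), reep3b (0.14) and vcp (0.53). In 4 of these 11 genes, among them lman2lb at 7.82 to 8.88 in 42 h fish against 6.82 to 7.58 in 0 h fish, the groups did not overlap. The share called higher in this list was 45.5%, against 34.0% of all named genes.

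Nucleolar genes followed the same course. Of 24 measured genes of ribosome biogenesis, 22 rose, none fell, and 9 separated the groups completely, with a median difference of 0.95. Fibrillarin (fbl), which methylates ribosomal RNA, had a log2 signal of 9.74, 11.48 and 12.01 (lowest, median and highest) at 42 h and of 9.57, 9.91 and 10.07 at 0 h. Only A2 at 42 h lay inside the 0 h range, and the difference was 1.37 ± 0.28 (adjusted p = 0.000981). The RNA acetyltransferase nat10 was higher by 1.65 ± 0.34, with 9.39 to 10.87 at 42 h and 7.76 to 8.71 at 0 h. Next came polr3d, a subunit of the polymerase that makes transfer RNA and 5S ribosomal RNA (1.36 ± 0.25), and wdr12, a factor for the large ribosomal subunit (1.31 ± 0.23), both without overlap between the groups. The box C/D protein nop58 (1.25), the processome component wdr36 (1.22) and bop1 (1.13), a partner of wdr12, rose by similar amounts, and rpl5b, a ribosomal protein, rose by 0.97. The members that did not pass were nol9 (0.42) and ftsj (0.80), and cd3eap was too dim (0.86).

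Genes that charge and modify transfer RNA moved with them. Of 10 measured, 7 were higher and none lower, with a median of 0.86. Threonyl-tRNA synthetase (tars) measured 9.49, 10.61 and 10.91 at 42 h against 8.53, 8.96 and 9.49 at 0 h, and even the lowest fish at 42 h, A2, lay just above the highest fish at 0 h (1.40 ± 0.21, adjusted p = 2.56e-05). The synthetases for glutamine (qars, 1.29 ± 0.24), arginine (rars, 0.94) and isoleucine (iars, 0.76) rose as well, as did the tRNA methyltransferase trmt5 (1.24 ± 0.22) and yrdc (0.98 ± 0.21), an enzyme of tRNA modification. The mitochondrial synthetase for cysteine, cars2, did not pass (-0.54, adjusted p = 0.34). Among 7 measured genes of amino acid metabolism, 3 were higher: asns, which makes asparagine (2.19 ± 0.42, 4.57-fold, adjusted p = 0.000521), cth, an enzyme of cysteine synthesis whose description names an inhibitor of it (1.24 ± 0.23), and blmh, a cysteine protease (0.63 ± 0.19), a call lost in 15 of 31 alternative fits. Fish at 42 h ranged from 6.76 to 9.62 for asns and fish at 0 h from 5.74 to 6.95, with A2 the lowest at 42 h and inside the 0 h range. Not called were odc1 (0.76), tdh (0.38), zgc:163121 (-0.11) and PHYKPL (-0.57), and slc38a2 (1.33) and ARG1 (1.30) were too dim. The share of amino acid genes called higher was 42.9%, against 34.0% of all named genes.

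Protein turnover and mitochondrial genes rose in part. Of 10 measured genes of the proteasome and ubiquitin conjugation, 5 were higher and none lower (median 0.47). The share higher was 50%, against 34.0% of all named genes. The smallest p was that of usp14, which trims ubiquitin chains at the proteasome, with 8.78 to 9.74 in 42 h fish against 7.81 to 8.31 in 0 h fish (1.18 ± 0.17, adjusted p = 2.02e-05). The proteasome lid subunit psmd11b rose by 1.28 ± 0.23, and the ubiquitin-conjugating enzymes ube2na and ube2d1b by 0.91 ± 0.17 and 0.81 ± 0.19. Of 16 mitochondrial genes, 7 were higher (43.8%) and 1 lower (6.25%), with a median of 0.57, against 34.0% and 11.2% of all named genes. Those that rose were the chaperonin hspd1 (1.28 ± 0.34), the protease lonp1 (1.05 ± 0.22), the import proteins tomm40 (0.96 ± 0.30) and pam16 (0.92), the lipid carrier prelid1a (0.87), the mitochondrial ribosomal protein mrpl28 (0.56) and sdhdb, a subunit of succinate dehydrogenase (0.95 ± 0.21). Cyclophilin D (ppifa), a regulator of the permeability pore, fell by 0.71. Cytochrome c (cycsb, 0.69), cox7a3 (0.58) and the fatty acid oxidation enzyme acadm (-0.80) did not pass, and the call for tomm40 was lost in 20 of 31 alternative fits. The cycsb value averages oligonucleotides of different transcripts. Those of isotig22007 gave 1.51 and 1.42 and passed singly (adjusted p = 0.0115 and 0.0184 in limma). Those of isotig27290 gave -0.12 and -0.03 and did not pass.

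Of 16 measured genes of mitosis and DNA replication, 2 passed and none fell, with a median of 0.01 whose sign changed between alternative fits. Those that passed were nasp, a histone chaperone described here as HGV2 (1.06 ± 0.20, adjusted p = 0.000523), and mcm4, a subunit of the replicative helicase (0.86 ± 0.21, adjusted p = 0.00558). The oligonucleotide of prim1, a subunit of the DNA primase, did not pass (0.51, adjusted p = 0.0775 in limma). The mitotic genes ccnb1 (-0.19), aurkb (0.07), birc5a (0.21) and ube2c (-0.06) were not called. Another 11 members were too dim for the filter. In a fit without it, hells (0.97 ± 0.24, adjusted p = 0.0161), a helicase of the chromatin remodeling family, and cdca7a (0.89 ± 0.20, adjusted p = 0.00608) passed, and the other 9 did not, with differences between -0.10 and 0.81.

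**Figure D2:**
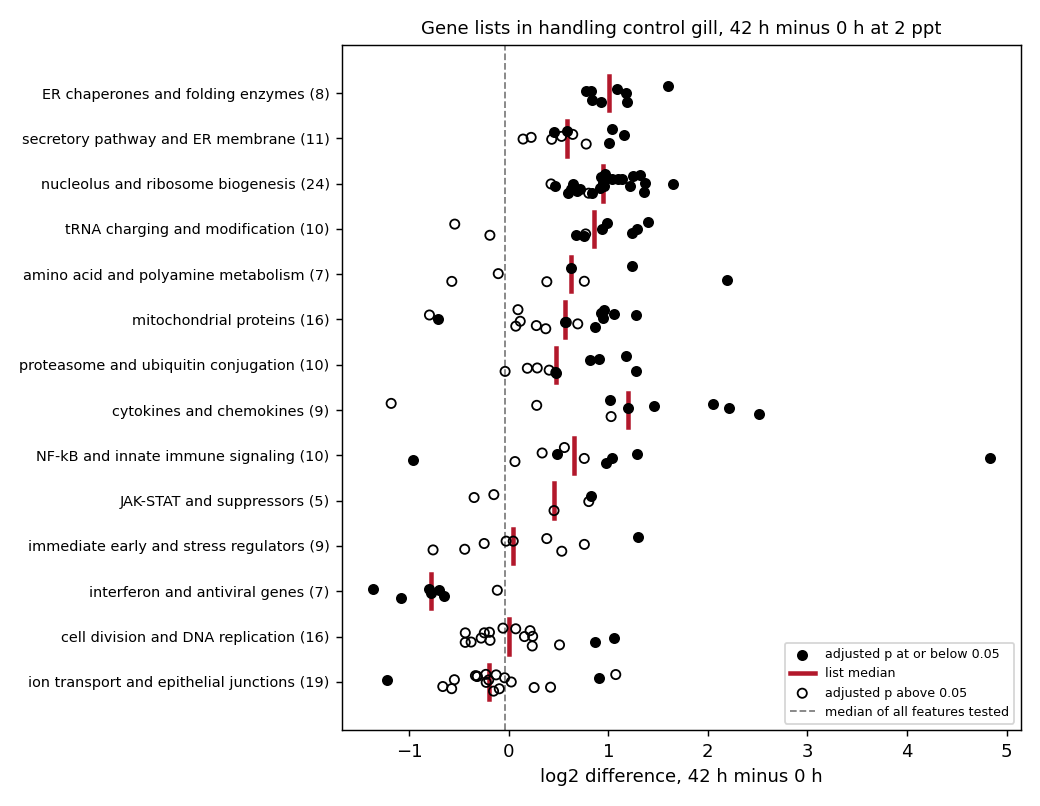
Log2 difference between 42 h and 0 h in the handling control (horizontal axis) for the measured members of 14 gene lists (rows, number of measured members in brackets), filled where the adjusted p was 0.05 or less, with the median of each list as a red bar and the median of all features as a dashed line. All 8 ER chaperones and 22 of 24 nucleolar genes are filled on the right, 6 of 7 interferon genes are filled on the left, and cell division and ion transport genes scatter around the dashed line.

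Outside these lists, the largest rises after irg1l were shared by genes of varied roles. The transcript wu:fj08f03, described only as a hypothetical protein, rose by 3.01 ± 0.45 (8.06-fold), and zgc:174917, described as a dioxygenase that uses alpha-ketoglutarate, also by 3.01 ± 0.45 (8.03-fold). Each separated all 42 h fish from all 0 h fish. The ES1 homolog sb:cb252, a mitochondrial-type protein, measured 12.55 to 14.66 at 42 h and 10.08 to 12.03 at 0 h (2.93 ± 0.46, adjusted p = 3.68e-05). Delta-aminolevulinate synthase (alas1), which makes the first intermediate of heme, was 12.71, 14.14 and 14.73 (lowest, median and highest) at 42 h against 11.47, 11.82 and 12.11 at 0 h. This was the rise with the smallest p among the named genes (2.14 ± 0.29, 4.40-fold, adjusted p = 4.19e-06), and both of its nearly identical oligonucleotides showed it, at 2.16 and 2.12. The remaining genes among the 12 largest rises were a hypothetical protein (isotig16420, 2.55 ± 0.61), the ferric-chelate reductase FRRS1 (2.32 ± 0.47), which reduces iron for transport, and the ATP-binding cassette protein abcf2a (2.06 ± 0.34).

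The largest fall belonged to CU915778.1, described as a protein G7c-like of unknown role. Its log2 signal was 5.29, 6.65 and 7.76 at 42 h (lowest, median and highest) and 9.99, 10.52 and 11.65 at 0 h. A gap of more than 2 log2 units separated the groups, and the mean was 17.3-fold lower at 42 h (-4.11 ± 0.51, adjusted p = 9.68e-07). This was the only named gene that also changed between 42 h and 18 h (-2.63, adjusted p = 0.0122), its 18 h fish ranging from 6.79 to 11.03. The oligonucleotides, which overlap by 30 bases, gave -4.28 and -3.94. Next came slc17a9a, related to the transporter that loads ATP into vesicles in mammals, with 5.41, 5.86 and 7.37 at 42 h against 7.86, 8.55 and 9.44 at 0 h. It too showed no overlap (-2.50 ± 0.36, 5.67-fold lower, adjusted p = 2.02e-05), with differences of -2.58 and -2.43 for oligonucleotides that share no stretch. At 42 h the means of the oligonucleotides were low, at 6.56 and 6.66 for CU915778.1 and 6.12 and 6.06 for slc17a9a. The sizes of both fold differences are thus uncertain.

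The other falls were smaller. The uncharacterized genes zgc:110712 (-1.72 ± 0.33) and zgc:163143 (-1.29 ± 0.25), the GTPase CR626941.1 (-1.65 ± 0.28), of a family known from lymphocytes in mammals, and the ATP-dependent transporter abcb5 (-1.45 ± 0.32) were lower at 42 h. Regucalcin (rgn), a calcium-binding protein, fell by 1.28 ± 0.29, htra4, described as a serine protease of the HtrA family, by 1.27 ± 0.38, the Rab regulator RABGAP1L by 1.24 ± 0.38 and an ankyrin-like transcript (isotig12709) by 1.31 ± 0.35. In zgc:110712 and htra4 all 42 h fish lay below all 0 h fish. In CR626941.1, abcb5, zgc:163143, rgn and isotig12709 this held for 5 of 6, and in RABGAP1L 1 fish at 42 h, A2, lay above all fish at 0 h. Of the genes in this paragraph, RABGAP1L and htra4 lost their calls most often, in 14 and 12 of 31 alternative fits.

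Ion transport is the function for which salinity transfers are studied. Of 19 measured genes of ion transport and epithelial junctions, 1 was higher, 1 lower and 17 were not called, with a median of -0.20. The shares, 5.26% higher and 5.26% lower, were near those over all genes and single probes, 5.80% and 3.61%. Among all named genes, to which these 19 belong, the shares were 34.0% and 11.2%. The pump that drives ion transport in gill, the Na/K ATPase, showed differences of 0.26 ± 0.40 for its alpha subunit atp1a1a.4, 0.03 ± 0.25 for atp1a1a.1 and -0.04 ± 0.29 for the beta subunit atp1b1b. Their fish overlapped fully, for example from 14.06 to 14.77 at 42 h and from 13.26 to 14.83 at 0 h for atp1a1a.4. A transcript described as similar to the gamma subunit (isotig07927), a small regulator of the pump, did rise, by 0.91 ± 0.25 (adjusted p = 0.0144), with 10.05 to 10.88 at 42 h against 9.25 to 10.42 at 0 h. Among other transporters, the Na-K-2Cl cotransporter slc12a2 gave -0.32 ± 0.41, the potassium channel genes kcnj1b and KCNJ16 gave -0.66 ± 0.37 and -0.23 ± 0.37, the anion exchanger slc26a6l -0.57 ± 0.47 and the ammonium transporter rhcga -0.55 ± 0.42. None of these 5 passed the test. The water channel aqp3b came close (1.08 ± 0.38, adjusted p = 0.058), with 4 of 6 fish at 42 h above all fish at 0 h. Singly, 1 of its oligonucleotides passed (1.23, adjusted p = 0.025 in limma) and the other did not (0.92, adjusted p = 0.128). Fish A2 at 42 h was low for aqp3b (8.44, next 9.45). Without that fish, 2 genes of the list were called higher instead of 1.

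The remaining members were a carbonic anhydrase (isotig22643, -0.09 ± 0.19), the anoctamin ano9a (-0.32 ± 0.15), the calcium pump atp2a2a (0.42 ± 0.30), NIPAL2 (-0.33 ± 0.27) and 4 claudins, the sealing proteins of tight junctions (cldna -0.13, cldnd -0.15, cldnf -0.20 and cldn5a -0.23). None was called. The gene that fell was trpv1, a cation channel, at -1.22 ± 0.38 (adjusted p = 0.0296), with 5.64 to 7.61 at 42 h and 6.98 to 8.12 at 0 h, a call lost in 15 of 31 alternative fits. The proton pump subunit atp6v0b (0.49) and the anoctamin ano10a (-0.18) were too dim for the filter. The 6 measured markers of ionocytes, the ion-transporting cells of the gill, are atp1a1a.1, atp1a1a.4, atp1b1b, slc12a2, kcnj1b and rhcga, of which none was called. With standard errors of 0.25 to 0.47 for most transporters, changes of about 1 log2 unit, and for some genes more, could be missed with 6 fish a group. The rise of aqp3b averaged over its oligonucleotides, above 1 log2 unit, was itself not called.

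**Figure D3:**
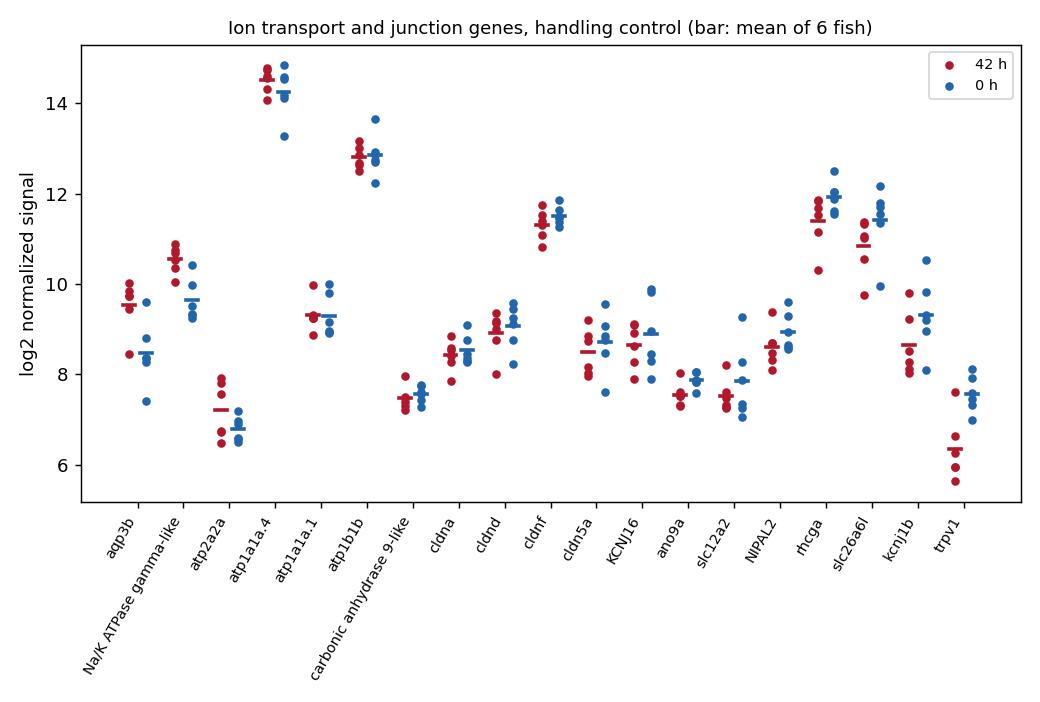
Log2 normalized signal (vertical axis) of 19 measured genes of ion transport and junctions (horizontal axis, ordered by their difference) in each handling control fish, 42 h in red left of 0 h in blue, with a bar at the mean of 6 fish. The colors overlap for nearly every gene; aqp3b and the gamma-like subunit at the left, and trpv1 at the right, show the largest shifts.

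Because 0 h and 42 h differ in the time of day, genes of the circadian clock would be of interest, but only 2 of 17 listed clock and light-responsive genes had a name. The clock repressor bhlhe40 measured 9.52 to 11.10 at 42 h and 9.88 to 10.57 at 0 h, a difference of 0.05 ± 0.27 (adjusted p = 0.95). The photolyase-like gene zgc:66475, whose relatives repair light damage to DNA, gave -0.42 ± 0.16 (adjusted p = 0.0828). Core clock genes were not analysed here.

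At 18 h no gene of the lists passed the test against 0 h. The median difference between 18 h and 0 h was 0.61 for ER chaperones, 0.41 for the nucleolus, 0.45 for tRNA genes and 0.99 for cytokines, and between 42 h and 18 h it was 0.43, 0.54, 0.46 and 0.20 in the same order. For all genes and single probes these medians were -0.01 and 0.01. Against the fish taken before the ramp, 1157 genes and single probes (8.13%) were higher and 604 (4.25%) lower at 42 h, while between 0 h and those fish no feature was called, with 1580 at an unadjusted p under 0.05 and a smallest adjusted p of 0.193. These 42 h differences share the 42 h fish with the main comparison and are not independent of it. Among all 376 named genes, 154 were higher and 35 lower at 42 h than before the ramp, and the list counts are to be read beside these. Relative to before the ramp, 8 of 8 ER chaperones, 17 of 24 nucleolar genes, 8 of 10 tRNA genes and 8 of 9 cytokines were higher at 42 h, with medians of 1.15, 0.84, 1.04 and 2.02. The medians between 0 h and before the ramp were 0.00, -0.12, -0.01 and 0.50. For irg1l the pre-experiment mean was 3.77, so the difference at 42 h was 6.50 (adjusted p = 3.09e-07 in limma). That mean is low, and the dimmest pre-experiment array had a median signal of 12.9, so the size of this difference is uncertain. The interferon list differed less from the earlier fish (median -0.55, 2 of 7 lower).

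The level of a list in a single fish was taken as the median over its members of the deviation from their mean in the 18 control fish. For the nucleolus these levels ran from -0.16 to 1.01 at 42 h and from -0.66 to -0.33 at 0 h, and for tRNA genes from -0.04 to 0.90 and from -0.72 to -0.11. Cytokines lay between -0.11 and 0.84 at 42 h and between -1.25 and -0.21 at 0 h. In these lists, and in those of the secretory route, NF-kB signaling and the proteasome, 6 of 6 fish at 42 h exceeded every fish at 0 h. In the ER chaperone list 5 of 6 did so, A2 at -0.38 being the exception, with A3 the highest at 1.38. Leaving out single fish gave 5 to 8 called ER chaperones, 19 to 23 nucleolar genes, 6 to 8 tRNA genes, 3 to 7 cytokines and 2 to 6 interferon genes. With only the 18 control arrays in the fit the counts were 4, 20, 7, 3 and 2, and with slide as a fixed block 4, 10, 4, 2 and 1. The scatter among 18 h fish was wide for cytokines, from -0.79 in B2 to 1.38 in A1.

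**Figure D4:**
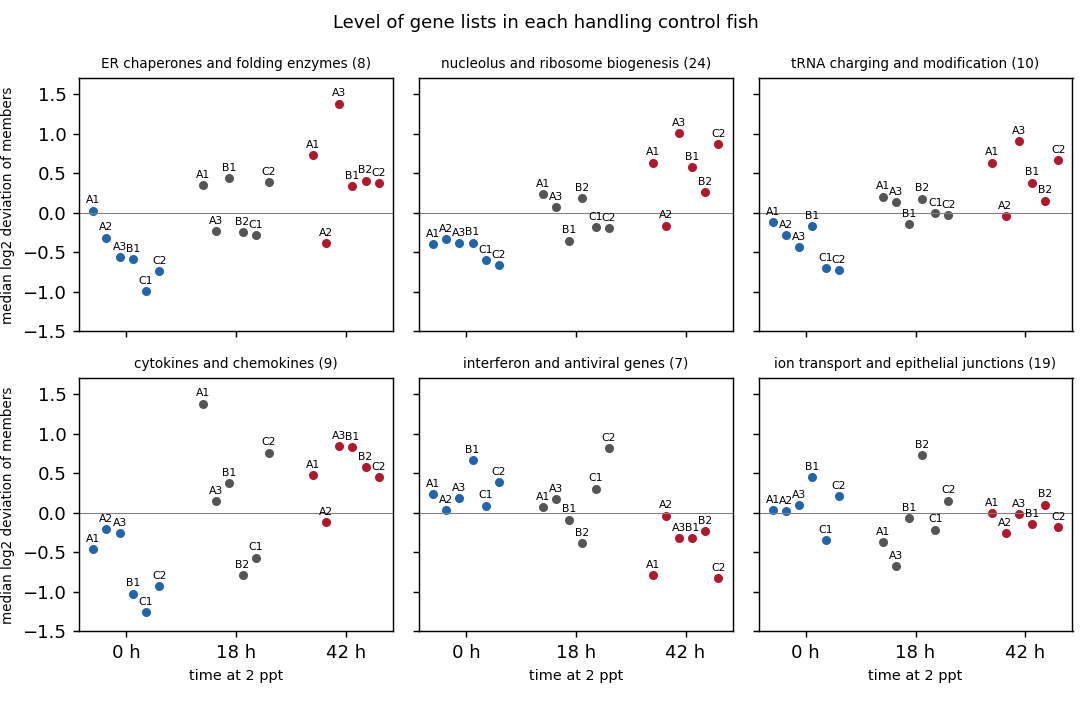
Median log2 deviation of the members of 6 gene lists (vertical axis; number of measured members in brackets) in each handling control fish at 0, 18 and 42 h (horizontal axis), relative to the mean of the 18 fish, with the fish label over each point. At 42 h fish A2 is the lowest in the first 4 lists and the highest in the interferon list, and the ion transport levels overlap at all times.

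Arrays at 42 h and 0 h shared a slide in 3 cases. On the slide with B2 at 42 h and B1 at 0 h, the list medians of the difference were 1.06 for ER chaperones, 0.68 for the nucleolus, 1.74 for cytokines and -0.68 for interferon genes. On the slide with B1 at 42 h and C1 at 0 h they were 1.12, 1.25, 2.25 and -0.55. On the slide with A2 at both times they were -0.03, 0.09, -0.08 and 0.00, so these lists hardly differed there. The tRNA and proteasome lists gave 0.27 and 0.34 on it. Single genes varied on that slide, with 2.34 for irg1l, 1.30 for il1b and -3.71 for CU915778.1, but -0.01 for hspa5 and -0.17 for fbl. Within the arrays scanned at a photomultiplier setting of 580, 2 at 42 h and 5 at 0 h, no probe was called, with 1433 at an unadjusted p under 0.05, and the list medians were 0.46, 0.62, 0.97 and -0.39. Within the arrays at 610, 4 at 42 h and 1 at 0 h, 89 probes were called and the medians were 1.34, 0.99, 1.57 and -1.11. The lone 0 h array there, B1, was assumed to vary like the other groups. With the scanner setting as a block in the fit of all arrays, 1087 probes were called, and with array brightness as a covariate 2390.

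The same change could be looked for in fish whose salinity had been altered, since these have their own arrays at 0 h and 42 h. Of the probes that changed in the control, 97.7%, 91.1%, 83.2% and 95.5% moved in the same direction at 0, 6, 12 and 18 ppt. Over all probes these shares were 70.0%, 62.6%, 63.2% and 70.3%. At 12 ppt the probes that were lower in the control shared the direction in 72.7%, against 89.4% of those that were higher. Called in their own right were 35.9%, 44.7%, 42% and 9.16% of the control's probes, with 4 fish against 4 at each salinity. Over all probes, the calls there were 905 of 14422, 3259 of 14423, 3785 of 14424 and 208 of 14425. Calls of any probe were thus far more common at 6 and 12 ppt than at 0 and 18 ppt, and these shares are to be read beside them. When the change in the control was set against the mean change at the other 4 salinities, no probe of 14420 differed in limma, with 1176 at an unadjusted p under 0.05 and a smallest adjusted p of 0.272. This count was 0 when each fish was left out in turn.

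The list medians of the change with time at 0, 6, 12 and 18 ppt were 0.91, 1.04, 0.67 and 0.92 for ER chaperones and 1.07, 0.85, 0.91 and 0.81 for the nucleolus, against 1.01 and 0.95 at constant salinity. Cytokines varied more, at 0.17, 1.11, -0.67 and 0.45 against 1.196 in the control. The interferon list was at -0.31, -0.43, -0.36 and -0.26, against -0.78 in the control. Cell division genes, at 0.01 in the control, reached 1.59 at 12 ppt and lay between -0.08 and 0.12 at the other 3 salinities. None of the genes in these lists passed the test of the control against the mean change at the other salinities. No salinity was tested singly against the control. Of the genes that moved most in the control, irg1l changed by 5.02, 4.54, 0.68 and 4.06 at 0, 6, 12 and 18 ppt, alas1 by 1.24, 1.60, 0.06 and 1.31, and CU915778.1 by -4.16, -2.47, -2.88 and -2.45. The fall of CU915778.1 was thus present at each salinity, whereas the change of irg1l and alas1 was smallest at 12 ppt. The test of the control against the mean of the other salinities gave these 3 genes adjusted p-values of 0.663, 0.614 and 0.615 in limma. It does not test the change at 12 ppt alone.

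**Figure D5:**
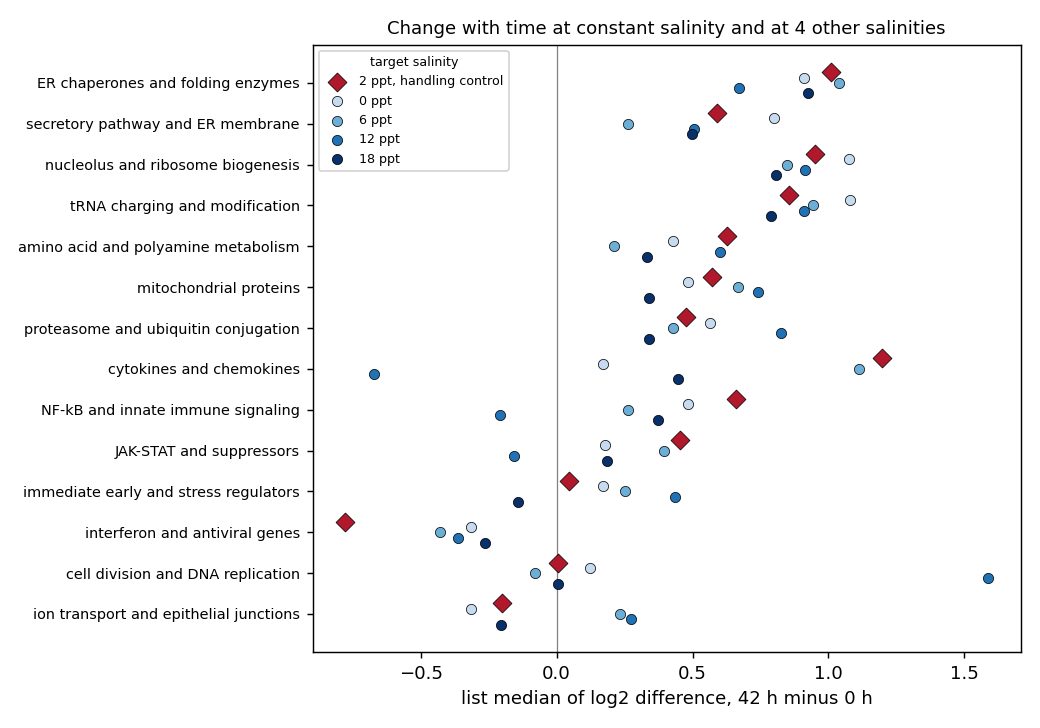
Median log2 difference between 42 h and 0 h (horizontal axis) of 14 gene lists (rows) in the handling control at 2 ppt (red diamonds, 6 fish against 6) and at 0, 6, 12 and 18 ppt (circles, 4 against 4). The 5 symbols lie close together for nucleolar and ER genes, and spread widely for cytokines and, through 12 ppt, for cell division.

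No single named gene set the control apart from the mean of the other salinities after adjustment. The smallest p for the difference among named genes was that of si:dkey-77f17.1, an unnamed protein read by 5 oligonucleotides, which measured 8.60 to 8.99 at 42 h and 7.71 to 8.29 at 0 h (0.74 ± 0.11, adjusted p = 2.02e-05). Its change at 0, 6, 12 and 18 ppt was 0.23, 0.44, -0.10 and 0.14. After adjustment over all features the difference had a p of 0.614, as it had for the next 4 genes. These were col6a2 (0.70 ± 0.32 in the control, with a description that names XRCC5 instead), the reductase cyb5r2 (-0.92 ± 0.23), AKIP1 (-0.41 ± 0.17) and SH2D7 (1.30 ± 0.32).

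Of the 1212 changed probes without a name, those with the largest rises were CUST_29948_PI428861894 (4.63 ± 1.24, adjusted p = 0.0108) and CUST_29949_PI428861894 (4.14 ± 1.198, adjusted p = 0.0182). The first had values of 9.003 to 12.68 at 42 h against 0.84 to 10.88 at 0 h, where 3 fish were high and 3 low, so the groups overlapped. The largest falls were those of CUST_26825_PI428861894 (-2.92 ± 0.78, adjusted p = 0.0102) and CUST_24111_PI428861894 (-2.90 ± 0.67, adjusted p = 0.00321). In CUST_24111_PI428861894, A2 at 42 h, at 11.86, lay inside the 0 h range of 10.31 to 12.75, and the other 5 fish at 42 h, at 7.08 to 8.52, lay below it.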

How the data were processed

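Gill RNA of single fish was labeled with 1 dye and hybridized to custom oligonucleotide arrays. The authors deposited the scanner output of each array. Its processed signal is an intensity from which the image analysis had subtracted background, with no normalization between arrays per the file headers. A deposited table by the authors holds log2 values, quantile normalized and centered on the median of each probe, which served here only as an alternative. The authors' image analysis also flagged 2036 outlier spots among the probes kept, and these were left out.

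Processed signals of the 14425 probes with at least 100 on at least 50% of 70 arrays were quantile normalized and log2 transformed. limma 3.58.1 in R 4.3.3 estimated 16 group means over the 70 arrays, with 54 residual and 3.39 prior degrees of freedom. Moderated tests of the contrasts had their p-values adjusted over all features (Benjamini-Hochberg), called at 0.05, and the script was tested on simulated data. For genes, the probes that the study assigns to one gene were averaged in a fish. Genes failing the filter were fitted without it. Probes with no name in the study's list were left unnamed, and no genome was used.

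The comparison, the gene lists and their members were chosen with earlier results of these data known, and the arrays were picked by their labels. Named in the text were the 12 genes with the largest rises and falls among those called, up to 4 called members of each list, all ion transport and clock genes, the 5 genes with the smallest p for the difference from other salinities, and 2 unnamed probes in each direction. Further list members were named to account for whole lists. Alternatives were other background corrections, scaling and filters, the authors' table, only the 18 control arrays, blocks for slide, label letter, replicate, photomultiplier setting and scan day, brightness as a covariate, and leaving out each fish. The normexp alternative used median signals.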

Additional observations from a re-analysis of the deposited data

Results flagged for a closer look

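Among 264 groups of 6 fish tested over the named genes, 15 held a fish whose log2 signal lay far from the others of its group, where about 1 in 20, or 13.2 groups, would be marked by chance. Fish A2 at 42 h accounted for 7 of them. It was high for abcb5 (7.78, next 6.51) and slc12a2 (8.21, next 7.60). It was low for aqp3b (8.44, next 9.45), asns (6.76, next 8.66), mcm4 (8.14, next 9.04), sb:cb252 (12.55, next 14.04) and wdr12 (8.29, next 9.19). In each of these 7 genes A2 stood apart from the other 42 h fish toward the mean of the 0 h fish.

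At 18 h, fish B2 was high for atp1a1a.1 (10.1, next 9.13) and slc26a6l (12.8, next 11.2), and A3 was high for slc12a2 (9.56, next 7.66). At 0 h, A1 was high for mcm4 (8.74, next 8.18) and low for tomm40 (5.45, next 6.31), A2 was high for htra4 (9.18, next 8.17), B1 was low for rgn (7.63, next 8.18) and C1 was low for slc26a6l (9.94, next 11.3).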

How the results depend on the processing

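The count of 1484 probes changed between 42 h and 0 h stayed between 1052 and 1516 under 12 settings: other background, scaling or filters, the authors' table, and slide (random), scan day, photomultiplier, label letter (fixed) or replicate as blocks. It was 222 when a signal of 100 was required on all arrays (fewer probes tested), 579 with only the 18 control arrays (fewer samples), 406 with slide as a fixed block, 849 with the letter within a time as a random block, 2390 with brightness as a covariate, 0 and 89 within photomultiplier settings 580 and 610, and 964 without the 2 brightest 0 h arrays, a setting chosen after seeing the data. Leaving out single fish gave 705 to 2334. Under the 12 settings named first, the probes called were not all the same. Of the 1484 probes, from 734 (no filter on dim probes) to 1458 (outlier spots kept) were called again there.

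For 18 h minus 0 h (no call), slide as a fixed block gave 2, settings 580 and 610 gave 1 and 71, brightness gave 6, and single fish gave 0 to 4 (4 without 18 h B2). For 42 h minus 18 h (6 calls), the counts were 1 with the all-array filter and with slide as a random block, 25 with brightness, 0 with the 18 control arrays, slide as a fixed block, both photomultiplier settings and the random letter, and 0 to 407 without single fish (407 without 42 h A2, 22, 20 and 11 without 18 h A1, 18 h B2 and 42 h B2, and 0 without 18 h A3 or C1 or 42 h B1 or C2). For the difference from the other salinities (no call), the all-array filter gave 1, settings 580 and 610 gave 3 and 26, and single fish gave 0 to 0. Causes were otherwise not tested.

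The replicate block gave 1256, 0, 5 and 0 probes for these 4 comparisons. Same-numbered fish correlated at -0.14 to 0.22 for 5 labels, against means of -0.04 to 0.06 with other labels. These 5 values are too few and too mixed to show whether a label marks more than a number.

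Over 86 named genes and 32 settings, 2684 values were compared: 2356 kept their direction and side of the threshold (or were not called in either fit), 322 lost their call, 5 gained one, and tomm40 reversed to -0.13 at photomultiplier 580. Array brightness and 6 fish a group limit the precision.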
